A study of Mus musculus with 9 samples.

Results

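The cell cycle and DNA replication genes were taken from a list of 56 mouse symbols covering cyclins, their kinases and inhibitors, the E2F factors, the replication licensing and helicase proteins, the enzymes that supply nucleotides, and the genes of mitosis. The members were found by symbol in a gene-level RNA-seq count table of 19044 Ensembl genes, and 55 of the 56 had a row. The other, Cdkn1c, was not analysed here. All 55 passed edgeR's filter on low counts, which kept 12235 genes of the table, although no filter was applied in the fits below.

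The cells were a mouse squamous cell carcinoma (SCC) model of focal adhesion kinase (FAK), the integrin-linked tyrosine kinase encoded by Ptk2. The tumours arose in the skin of K14CreER FAK flox/flox mice on the FVB background, in which the keratin 14 promoter drives an inducible Cre, after treatment with dimethylbenz[a]anthracene and 12-O-tetradecanoylphorbol 13-acetate. The floxed gene was deleted in culture, by exposing cells taken from a tumour to 4-hydroxytamoxifen. FAK-null (FAK-/-) cells were compared with cells of a FAK-/- clone that stably carried, by retrovirus, either wild-type FAK (FAK-WT) or a kinase-deficient lysine-to-arginine mutant (FAK-kd). All 3 lines therefore share the carcinogen history and the deleted endogenous gene, and the 2 re-expressing lines also share hygromycin selection, which is not described for the FAK-null cells. No time point or further treatment distinguished the lines, and each was sequenced as 3 biological replicates. Nothing further states which cultures these came from, so the p-values below measure the spread between these libraries.

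Summed counts ran from 25304994 to 37264636 in 8 libraries, whereas FAK-WT replicate 1 held only 779755, or 2.31% of the median of the others. Values are given as CPM, counts scaled to a common library size after TMM normalisation, so 3 counts correspond to 3.78 CPM in that library and to between 0.0798 and 0.118 CPM elsewhere. Ptk2 was at 213, 216 and 216 CPM in the FAK-WT libraries, 21.8, 23.5 and 19.6 in FAK-null and 155, 158 and 176 in FAK-kd, in the order of the labels. Of the epithelial markers examined, only Itga6 exceeded 1 CPM in every library, at 169 to 174 CPM in FAK-WT, 282 to 297 in FAK-null and 251 to 273 in FAK-kd. Krt5, Krt14, Krt6a, Krt18 and Cdh1 were at 0.24 CPM or less throughout, and Krt8 was at 0.158 to 1.38 CPM. Krt15 was at 0.266 CPM or less in FAK-WT, 1.5 to 1.86 in FAK-null and 1.64 to 2.25 in FAK-kd. The summed level of the 8 found of 10, nearly all of it Itga6, lay at 170.3 to 175 CPM in FAK-WT, 285 to 299 in FAK-null and 255 to 276 in FAK-kd. The squamous origin named in the labels was therefore not visible in its defining keratins. Of the fibroblast markers, 4 of the 6 found of 7 exceeded 1 CPM in every library, led by Col3a1 at 1287 to 1913 CPM. Col1a1 was at 1.64 CPM or less and Dcn at 0.506 CPM or less in all libraries. The 6 summed, mostly as Col3a1, to 1605 to 1701 CPM in FAK-WT, 1344 to 1630.5 in FAK-null and 1409 to 1988 in FAK-kd. The 2 immune markers found of 5 and the 4 endothelial markers summed to at most 3.33 and 2.05 CPM, and the part of any of these lists in the results below was not tested.

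Progress through the cell cycle is driven by cyclin-dependent kinases (Cdks), each of which needs a cyclin partner. D-type cyclins with Cdk4 or Cdk6, and then E-type cyclins with Cdk2, phosphorylate the retinoblastoma protein and release E2F factors, which switch on the genes of DNA replication. Later, the B-type cyclins with Cdk1 carry the cell into mitosis, and many mitotic genes are induced in G2 through CHR elements and CCAAT boxes in their promoters. Proteins of the Cip/Kip and INK4 families hold the kinases in check. Integrin and FAK signalling is classically linked to cyclin D1 and to the G1 to S transition in adherent cells.

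Promoter sequences illustrate these controls in members whose levels are described below. RefSeq windows reaching from 250 bases before to 50 bases after a transcription start (GRCm38.p6) were found for 43 of the 55 members, as 48 windows. An E2F site, searched on both strands as TTTCGCGC, TTTGGCGC, TTTCCCGC or TTTGCCGC, was present in 25% of the member windows and in 2.26% of all 32851 windows. For the CHR element (TTTGAA) the shares were 31.2% and 17.9%, and for the CCAAT box (CCAAT) they were 72.9% and 37.4%. E2F letters were found in 6 of the 10 windows of licensing and helicase genes, but in 0 of the 5 windows of the genes of the sliding clamp and nucleotide supply. CHR letters were found in 10 of the 17 windows of mitotic genes, against 5 of the 31 windows of the other members. These matches describe letters only and do not show a bound site. The 250 bases before the start of 4 members are given 5′ to 3′ on the gene's strand, with every match to these motifs in capitals. Mcm6 and Mcm7 encode subunits of the replicative helicase, Cdk1 the mitotic kinase, and Kif11 the kinesin that separates spindle poles.
Mcm6, chr1:128359706-128359955, minus strand: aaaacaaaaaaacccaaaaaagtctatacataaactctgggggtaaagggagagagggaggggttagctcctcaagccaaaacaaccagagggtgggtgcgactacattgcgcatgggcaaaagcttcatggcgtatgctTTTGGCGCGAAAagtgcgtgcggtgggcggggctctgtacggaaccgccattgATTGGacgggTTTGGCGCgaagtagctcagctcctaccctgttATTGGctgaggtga
Mcm7, chr5:138171884-138172133, minus strand: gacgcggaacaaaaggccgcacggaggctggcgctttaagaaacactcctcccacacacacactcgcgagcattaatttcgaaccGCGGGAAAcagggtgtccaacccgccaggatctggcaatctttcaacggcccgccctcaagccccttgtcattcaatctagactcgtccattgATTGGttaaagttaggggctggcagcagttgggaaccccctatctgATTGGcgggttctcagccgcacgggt
Cdk1, chr10:69352913-69353162, minus strand: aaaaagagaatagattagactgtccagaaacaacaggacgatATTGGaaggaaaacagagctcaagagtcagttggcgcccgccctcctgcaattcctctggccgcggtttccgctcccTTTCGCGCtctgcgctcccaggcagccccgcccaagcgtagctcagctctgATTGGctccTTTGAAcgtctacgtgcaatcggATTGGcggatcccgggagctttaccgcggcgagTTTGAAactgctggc
Kif11, chr19:37376132-37376381, plus strand: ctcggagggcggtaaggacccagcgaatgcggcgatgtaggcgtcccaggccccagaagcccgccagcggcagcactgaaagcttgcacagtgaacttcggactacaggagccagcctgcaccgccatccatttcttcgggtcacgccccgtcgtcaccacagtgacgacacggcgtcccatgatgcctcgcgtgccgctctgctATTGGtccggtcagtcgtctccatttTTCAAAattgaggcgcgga
In Mcm6 the first capital run holds overlapping E2F letters on opposite strands, beginning at -110 and -106 from the start, and a further E2F match begins at -47. The E2F letters of Mcm7 begin at -165 and, past the printed bases, at 17, and a second window, for another start of Mcm7, held only a CCAAT box. Cdk1 held 2 CHR elements, at -71 and -15, an E2F site at -131 and 3 CCAAT boxes, at -208, -80 and -48. Kif11 held 1 CHR element, at -19, and 1 CCAAT box, at -45.

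As a set, the members differed little between the 3 lines. The median log2 fold change over the 55 was -0.01 for FAK-WT over FAK-null, 0.09 for FAK-kd over FAK-null and -0.08 for FAK-WT over FAK-kd, beside medians of 0.00 over all genes in each comparison. Without Ccnd2, which was absent from some libraries, the median difference of the members from the FAK-null mean was 0.12, 0.08 and 0.09 on the log2 scale in the 3 FAK-kd libraries. It was 0.04, -0.04 and -0.05 in the FAK-WT libraries and -0.03, -0.02 and 0.05 in the FAK-null libraries themselves. Thus the 3 FAK-kd libraries lay above all the others by a small margin, and FAK-WT and FAK-null overlapped. The summed level of all members was 11006 to 11491 CPM in FAK-WT, 11676 to 12089 CPM in FAK-null and 11646 to 12129 CPM in FAK-kd. In bulk RNA such as this, fewer cells in a given phase and less RNA per cell cannot be told apart.

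**Figure D1:**
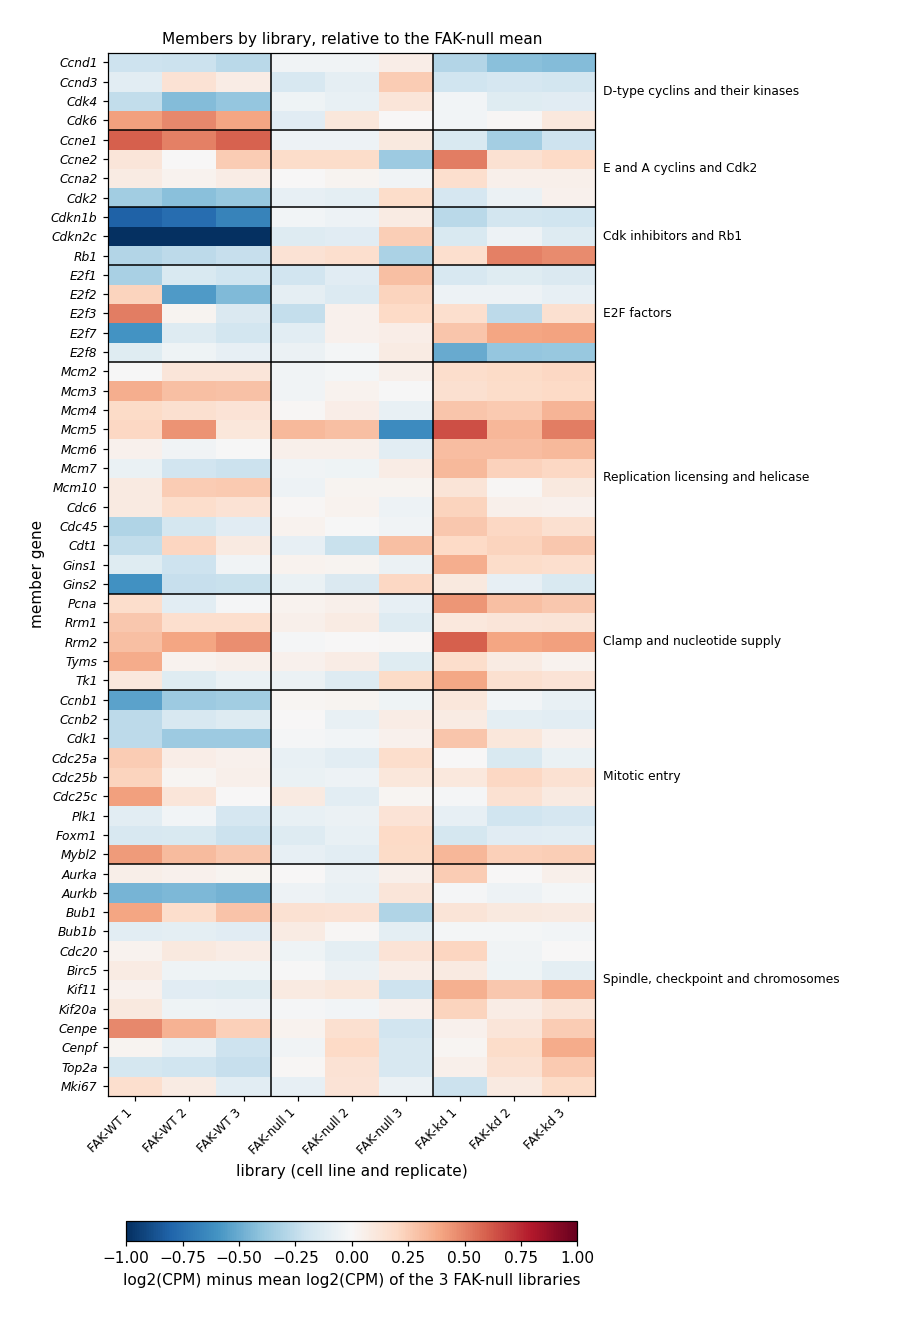
Heat map of 54 members (rows, grouped by role; Ccnd2, with counts of 0, is left out) in the 9 libraries (columns). Colour gives log2(CPM) minus the mean of the 3 FAK-null libraries and saturates at 1 in size. Cdkn2c and Cdkn1b are the darkest blue rows in the FAK-WT columns, most rows of the licensing group are pale red in the FAK-kd columns, and FAK-null replicate 3 departs from the other FAK-null columns in rows such as Mcm5, Ccne2 and Rb1.

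FAK-null replicate 3 stood apart over the members, as the heat map of the members by library shows. In it, 12 of 54 members lay more than 0.3 on the log2 scale from the mean of the other FAK-null libraries, against 2 in each of those. This was counted over the members only and not over all genes. FAK-WT replicate 1, the shallow library, had 7 such members against 1 in each of the other FAK-WT libraries. The counts of called members below were therefore repeated without these libraries. The counts past the log2 minimum given below, 2, 1 and 2, were the same without either library or both.

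The FAK-WT line was compared with the FAK-null line to ask which members differ between them. With 1 line for each FAK status, an effect of FAK cannot be told apart from other differences between the lines. At an adjusted p of 0.05 (edgeR quasi-likelihood test, Benjamini-Hochberg over all genes), 7 members were higher and 10 were lower in FAK-WT than in FAK-null cells, or 12.7% and 18.2%. Over all genes the shares were 8.01% higher and 9.96% lower, and over the genes kept by the low-count filter 11.6% and 15.1%, so the members lay near the background in both directions. With a further minimum of 1 on the log2 scale, 2 members were called, Cdkn2c and Ccnd2, both lower, beside 5.38% of all genes. Without FAK-WT replicate 1 the counts were 6 and 10, without FAK-null replicate 3 they were 9 and 14, and without both they were 10 and 16. The count of higher members was 4 without FAK-WT replicate 2. Over all genes, 1526 were higher and 1896 lower in the fit of all libraries. Calls over all genes in either direction were 3362, 4393 and 4843 without FAK-WT replicate 1, without FAK-null replicate 3 and without both. They were 2074 without FAK-WT replicate 2.

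The FAK-kd line was compared with the FAK-null line in the same way. In FAK-kd cells 7 members were higher and 3 were lower than in FAK-null cells, or 12.7% and 5.45%, beside 3.97% and 3.88% of all genes and 6.11% and 5.81% of the genes kept by the filter. Ccnd2 alone passed the log2 minimum, beside 2.01% of all genes. The count of higher members depended on single libraries. It was 14 without FAK-null replicate 3 and 4, 4 and 3 without FAK-kd replicate 1, 2 or 3, whereas it stayed at 7 without FAK-WT replicate 1 and was 16 without both that library and FAK-null replicate 3. Calls over all genes moved too, from 756 higher and 738 lower in the fit of all libraries. In either direction they were 2211 without FAK-null replicate 3 and 1099, 761 and 712 without FAK-kd replicate 1, 2 or 3. They were 1675 without FAK-WT replicate 1 and 2776 without both that library and FAK-null replicate 3.

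The direct comparison of FAK-WT with FAK-kd tests the difference between these 2 lines. They differ in the form of FAK and in the mean level of Ptk2, 215 and 163 CPM, and these cannot be told apart. In FAK-WT cells 4 members were higher and 16 were lower than in FAK-kd cells, or 7.27% and 29.1%, beside 7.58% and 10.2% of all genes and 10.7% and 15.5% of the genes kept by the filter. Past the log2 minimum were Cdkn2c, lower, and Ccnd2, higher, beside 5.26% of all genes. The counts were 4 and 18 without FAK-WT replicate 1, 10 and 21 without FAK-null replicate 3, and 7 and 22 without both. Over all genes, 1443 were higher and 1933 lower in the fit of all libraries. Calls over all genes in either direction were 3367, 5355 and 5759 in these 3 fits. FAK-null replicate 3 enters this comparison only through the library scaling and the shared estimate of spread. Each of the 3 comparisons shares a set of libraries with each of the others, so they are not independent, and their values are given side by side.

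**Figure D2:**
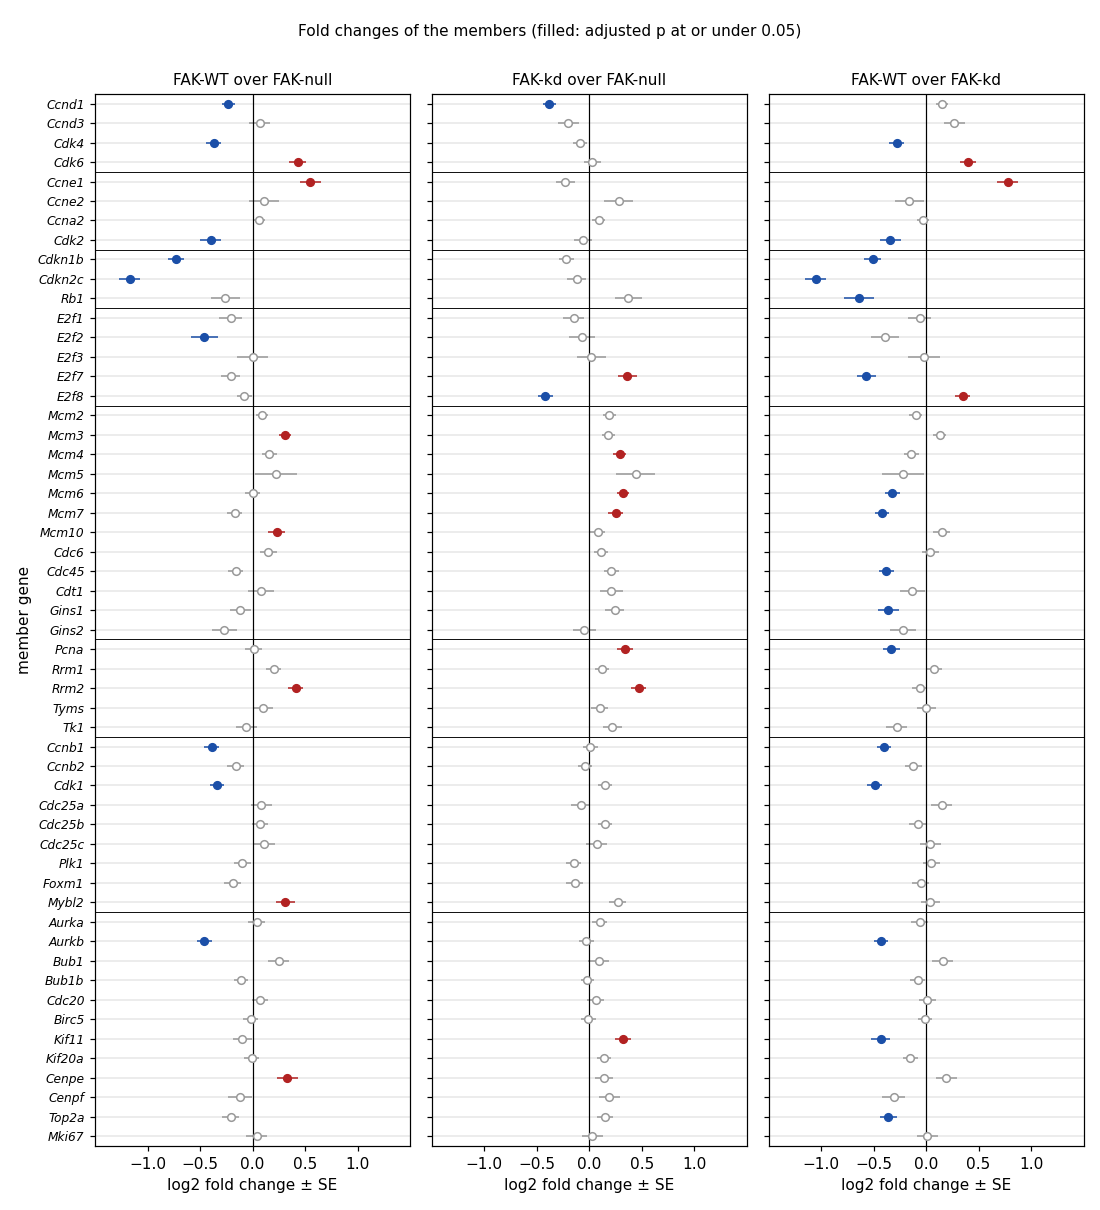
Log2 fold change (x axis) with its standard error for 54 members (rows, in the order of the role groups; Ccnd2 is left out) in the 3 comparisons. Filled red and blue points are members called higher and lower at adjusted p of 0.05, and open grey points were not called. All filled points except Cdkn2c lie within 1 of zero, and 16 filled blue points stand in the panel of FAK-WT over FAK-kd.

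The inhibitors of the Cdks showed the largest difference among the well-expressed members. Cdkn2c, which encodes the INK4 inhibitor p18 of Cdk4 and Cdk6 (chr4:109660876-109667189), was at 52.9, 57.2 and 57.4 CPM in the FAK-WT libraries, 116, 117 and 149.9 CPM in FAK-null and 114, 122 and 116 CPM in FAK-kd. The FAK-WT libraries thus all lay below every other library, while FAK-null and FAK-kd overlapped. Group means were 55.8 ± 2.54 CPM in FAK-WT, 128 ± 19.2 CPM in FAK-null and 117 ± 3.82 CPM in FAK-kd (SD, n = 3). The log2 fold change was -1.17 (SE 0.10) for FAK-WT over FAK-null (adjusted p = 5.4e-07) and -1.05 (SE 0.10) for FAK-WT over FAK-kd (adjusted p = 1.8e-06), and it was -0.12 (SE 0.09) for FAK-kd over FAK-null (adjusted p = 0.485). Cdkn1b, which encodes the Cip/Kip inhibitor p27 of Cdk2 (chr6:134920401-134925513), was at 42.8, 44.1 and 47.3 CPM in FAK-WT, 73.4, 72.3 and 79.4 CPM in FAK-null and 62.3, 66 and 65.3 CPM in FAK-kd, so that none of the 3 lines overlapped. FAK-WT was lower than FAK-null, with a log2 fold change of -0.73 (SE 0.08, adjusted p = 8.8e-06), and lower than FAK-kd, with -0.51 (SE 0.08, adjusted p = 2.6e-04). The value for FAK-kd over FAK-null, -0.22 (SE 0.07), did not pass the threshold (adjusted p = 0.0867), with an adjusted p of 0.0353 when genes with low counts were filtered before the fit. Rb1, the retinoblastoma gene on which these pathways converge, was lower in FAK-WT than in FAK-kd, with a log2 fold change of -0.64 (SE 0.14, adjusted p = 0.00393), at 18.9, 19.3 and 19.7 CPM against 26, 32.8 and 32 CPM. In FAK-null it stood at 25.6, 25.9 and 18.6 CPM, so the third library lay near FAK-WT and the other libraries near the lowest FAK-kd value. Summed over these 3 genes, the level was 50.7% to 55% of the FAK-null mean in the FAK-WT libraries and 89.6% to 97.6% in the FAK-kd libraries.

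Among the D-type cyclins and their kinases, cyclin D1 was lower in both re-expressing lines than in FAK-null cells. Ccnd1 (chr7:144929931-144939925), the most abundant member per kilobase of its longest transcript, was at 2465, 2453 and 2368 CPM in FAK-WT, 2789, 2780.1 and 2988 CPM in FAK-null and 2324, 2132 and 2115 CPM in FAK-kd, with no overlap between lines. Its log2 fold change over FAK-null was -0.23 (SE 0.06) in FAK-WT (adjusted p = 0.0138) and -0.38 (SE 0.06) in FAK-kd (adjusted p = 8.9e-04), and that of FAK-WT over FAK-kd was 0.15 (SE 0.06, adjusted p = 0.115, and 0.0303 in DESeq2). Of its words of 31 bases, 22.3% occur in other genes. The FAK-WT call was lost without FAK-WT replicate 2 (adjusted p = 0.0613) or 3 (adjusted p = 0.0902). Ccnd2 (chr6:127125162-127152193), which encodes cyclin D2, was a low gene with 124, 92 and 133 counts in the FAK-null libraries, 0, 15 and 8 in FAK-WT and 0, 1 and 2 in FAK-kd. Its count of 0 in FAK-WT replicate 1 carries little information, since 3 counts there equal 3.78 CPM, about the level of the FAK-null libraries (3.72, 3.63 and 4.26 CPM). From the summed counts and depths, Ccnd2 was 130.4-fold higher in FAK-null than in FAK-kd (95% exact interval 44.3 to 636) and 12.2-fold higher than in FAK-WT replicates 2 and 3 (7.99 to 19.5), intervals that cover counting error only. Both differences were called (adjusted p = 4.6e-07 and adjusted p = 1.4e-05). The difference between FAK-WT and FAK-kd was also called (adjusted p = 0.00187), on 23 counts against 3, with overlapping libraries and a ratio of 10.6 (3.2 to 55.1).

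The 2 kinases that D-type cyclins activate differed in opposite directions. Cdk6 (chr5:3341485-3531008) was at 74.3, 78.1 and 73.4 CPM in FAK-WT, 51.8, 60.5 and 56 CPM in FAK-null and 54.8, 56.5 and 60.1 CPM in FAK-kd. FAK-WT was above every other library, by 0.43 (SE 0.08) on the log2 scale over FAK-null (adjusted p = 0.00166) and 0.40 (SE 0.08) over FAK-kd (adjusted p = 0.00259), while FAK-kd over FAK-null was 0.03 (SE 0.08). Cdk4 was lower in FAK-WT, at 509, 449 and 463 CPM against 586, 574 and 659 CPM in FAK-null and 594, 557 and 561 CPM in FAK-kd, with log2 fold changes of -0.37 (SE 0.07, adjusted p = 0.00222) and -0.28 (SE 0.07, adjusted p = 0.014). Of 31-base words in its transcripts, 19.5% also occur in other genes, chiefly Tspan31, so its reads may be shared, and the call against FAK-kd was lost without FAK-WT replicate 2 or 3. Ccnd3 was not called in any comparison, with values of 0.07 (SE 0.10), -0.20 (SE 0.10) and 0.27 (SE 0.10) in the order of the comparisons above.

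Cyclin E1 and its kinase Cdk2 also went opposite ways in FAK-WT cells. Ccne1 (chr7:38097984-38107534) was at 35.2, 33.1 and 35.1 CPM in FAK-WT, 22.5, 22.5 and 25 CPM in FAK-null and 21, 18.4 and 20.2 CPM in FAK-kd. The 3 FAK-WT libraries were the highest, and the log2 fold change was 0.55 (SE 0.10) over FAK-null (adjusted p = 8.0e-04) and 0.78 (SE 0.10) over FAK-kd (adjusted p = 3.2e-05). The difference of FAK-kd from FAK-null, -0.23 (SE 0.09), was not called (adjusted p = 0.155). Cdk2 (chr10:128697939-128705031) was at 44.1, 42 and 43.2 CPM in FAK-WT, 53, 52.6 and 63.7 CPM in FAK-null and 50.1, 54.1 and 57.8 CPM in FAK-kd. FAK-WT was the lowest line, with log2 fold changes of -0.40 (SE 0.10) against FAK-null (adjusted p = 0.00989) and -0.34 (SE 0.10) against FAK-kd (adjusted p = 0.0266). Both calls were lost without FAK-WT replicate 2 or 3 (adjusted p 0.0591 to 0.165), and the one against FAK-kd also without FAK-kd replicate 2 or 3 (0.0936 and 0.154). Ccna2, which encodes cyclin A2, the S and G2 partner of Cdk2, was not called and stood between 466 and 539 CPM in all 9 libraries, with a log2 fold change of 0.06 (SE 0.06, 95% interval -0.07 to 0.20) for FAK-WT over FAK-null. Ccne2, the second E-type cyclin, was not called either.

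**Figure D3:**
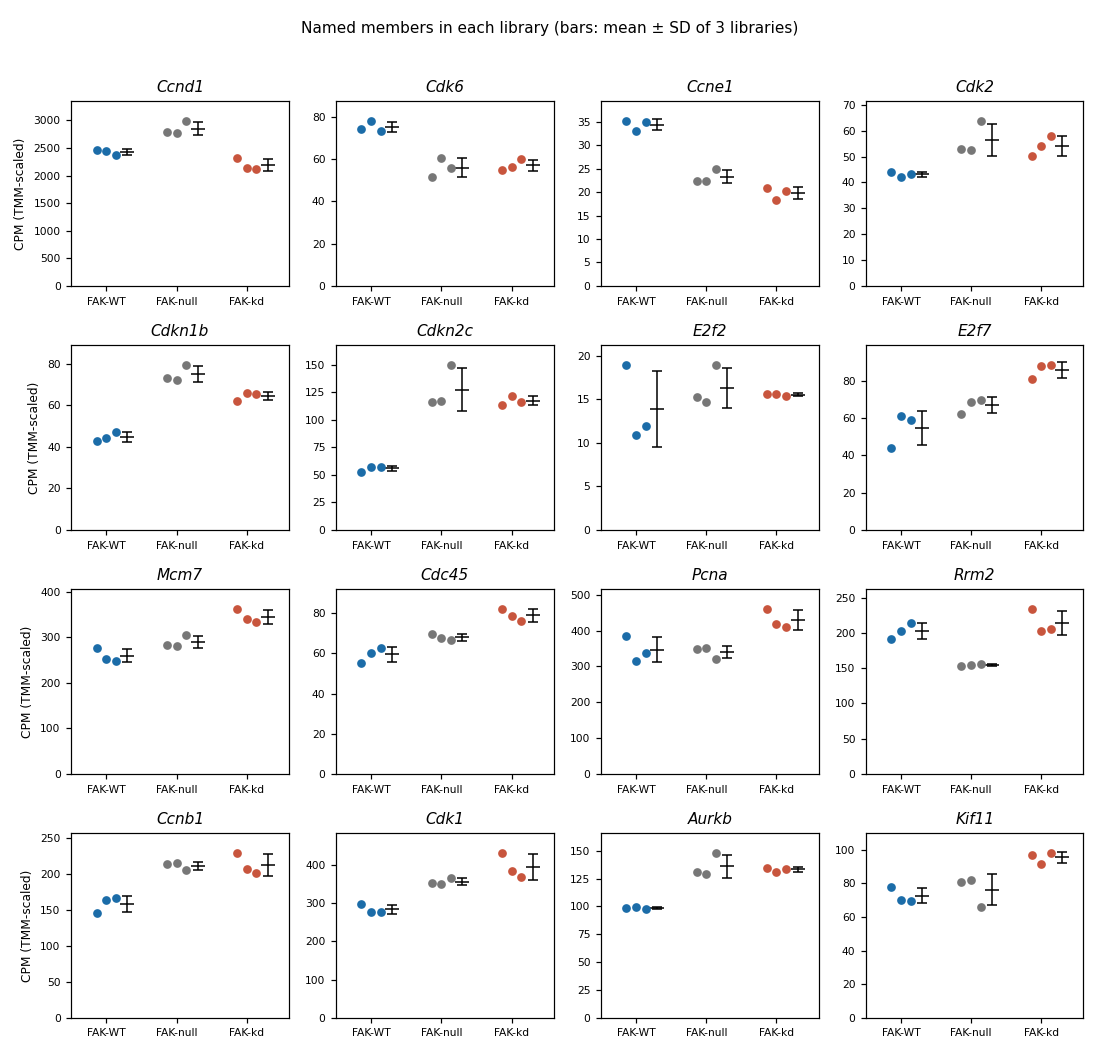
CPM (TMM-scaled, y axes from 0) of 16 named members in the 3 cell lines (x axis). Coloured points are single libraries, and black bars give the mean and SD of 3 libraries. Cdkn2c and Cdkn1b are lowest and Cdk6 and Ccne1 highest in FAK-WT, whereas Mcm7, Pcna, Cdc45 and Kif11 are highest in FAK-kd.

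The 5 E2F factors among the members all had negative estimates in FAK-WT over FAK-null, with a median of -0.21. Negative estimates were found for 48.4% of all genes and 53.2% of the genes kept by the filter. That of E2f3 rounds to 0.00, and 4 of the 5 were negative without FAK-null replicate 3. The sign did not hold over the family: outside the members, E2f4 was at 0.08 (SE 0.08), E2f5 at -0.06 (SE 0.09) and E2f6 at -0.30 (SE 0.18), none of them called. Only E2f2 was called in that comparison, and E2f7 and E2f8 were called in opposite directions in FAK-kd over FAK-null. E2f7, an atypical repressor of the family (chr10:110745439-110787384), was at 44.1, 61.1 and 58.8 CPM in FAK-WT, 62, 68.8 and 69.8 CPM in FAK-null and 80.9, 88 and 88.4 CPM in FAK-kd. FAK-kd was the highest line, by 0.36 (SE 0.09) over FAK-null (adjusted p = 0.0169), and FAK-WT was lower than FAK-kd, at -0.57 (SE 0.09, adjusted p = 3.8e-04). The call over FAK-null was lost without FAK-null replicate 1 (adjusted p = 0.082) and without FAK-kd replicate 2 or 3 (0.114 and 0.137). E2f8, the other atypical repressor, was lower in FAK-kd, at 108, 117 and 118 CPM against 147, 151 and 162 CPM in FAK-null and 141, 149 and 145 CPM in FAK-WT, with log2 fold changes of -0.42 (SE 0.07) for FAK-kd over FAK-null (adjusted p = 8.1e-04) and 0.35 (SE 0.07) for FAK-WT over FAK-kd (adjusted p = 0.0021). E2f2, an activator (chr4:136172394-136196057), was called lower in FAK-WT than in FAK-null at -0.46 (SE 0.13, adjusted p = 0.0265), but its libraries overlapped, at 18.9, 10.9 and 11.9 CPM in FAK-WT, 15.2, 14.7 and 18.9 CPM in FAK-null and 15.6, 15.6 and 15.3 CPM in FAK-kd. The highest FAK-WT value rests on 15 counts, and the call was lost in DESeq2 (adjusted p = 0.0999), in a fit of these 2 lines alone (0.11), and without FAK-WT replicate 2 or 3 (0.249 and 0.129) or FAK-kd replicate 2 or 3 (0.0505 and 0.0521). The activators E2f1 and E2f3 were not called, with log2 fold changes over FAK-null of -0.21 (SE 0.11) and 0.00 (SE 0.15) in FAK-WT and -0.15 (SE 0.10) and 0.02 (SE 0.14) in FAK-kd.

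Of the 12 replication licensing and helicase genes, 3 were higher in FAK-kd than in FAK-null cells, Mcm4, Mcm6 and Mcm7, the other 9 did not pass the test, and none was called lower. In this comparison 3.97% of all genes and 6.11% of the genes kept by the filter were called higher. Positive estimates were found for 11 of the 12, beside 46.9% of all genes, 50.9% of the genes kept by the filter and 36 of the 55 members. They were also found for 76.3% of a wider list of 114 cell cycle genes outside the members, described below. The group median was 0.21 on the log2 scale, beside 0.00 over all genes and 0.11 over the wider list. Without FAK-null replicate 3, 7 of the 12 were called higher and all 12 estimates were positive. In that fit 2211 of all 19044 genes were called in either direction, beside 756 higher and 738 lower in the fit of all libraries. Their summed level was 1995 to 2047 CPM in FAK-kd, 1713 to 1727 CPM in FAK-null and 1784 to 1806 CPM in FAK-WT, so that the 3 lines did not overlap and FAK-kd reached 116% to 119% of the FAK-null mean. Mcm7 (chr5:138164583-138172422) was at 362, 339.6 and 333 CPM in FAK-kd, 282, 281 and 304 CPM in FAK-null and 276, 253 and 249 CPM in FAK-WT. Its log2 fold change was 0.25 (SE 0.07) for FAK-kd over FAK-null (adjusted p = 0.0288) and -0.42 (SE 0.07) for FAK-WT over FAK-kd (adjusted p = 4.1e-04). The call of Mcm7 over FAK-null was not secure. It was lost in the fit of those 2 lines alone and on leaving out any of 7 of the 9 libraries (adjusted p 0.0559 to 0.098), all but FAK-null replicate 3 and FAK-WT replicate 1. Moreover, 33.4% of the 31-base words of Mcm7 occur in other genes, chiefly the copy Gm5487. Mcm6, the subunit whose promoter is printed above, was at 412, 412 and 417 CPM in FAK-kd, 345, 344 and 309.8 CPM in FAK-null and 342, 325 and 332 CPM in FAK-WT, at 0.32 (SE 0.06) over FAK-null (adjusted p = 0.00585) and -0.32 (SE 0.07) for FAK-WT over FAK-kd (adjusted p = 0.00273). Mcm4 was called higher in FAK-kd than in FAK-null (0.29, SE 0.06, adjusted p = 0.00907, lost without FAK-kd replicate 3) and Mcm3 higher in FAK-WT than in FAK-null (0.31, SE 0.06, adjusted p = 0.002), whereas Mcm2 was not called in the main fit. In DESeq2 Mcm2 and Mcm3 were also called in FAK-kd over FAK-null. Mcm5 was listed at 42.4, 41.7 and 21.9 CPM in FAK-null, the last of these far below the first pair, and its estimate of 0.44 (SE 0.19) for FAK-kd over FAK-null did not pass (adjusted p = 0.189).

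Cdc45 and Gins1, partners of the Mcm ring in the active helicase, were lower in FAK-WT than in FAK-kd. Cdc45 (chr16:18780447-18811987) was at 55.4, 60.4 and 62.9 CPM in FAK-WT, 69.9, 67.9 and 66.5 CPM in FAK-null and 82.1, 78.5 and 76.1 CPM in FAK-kd. The 3 lines were ordered without overlap, and only FAK-WT over FAK-kd was called, at -0.38 (SE 0.07, adjusted p = 0.00202), the values against FAK-null being -0.16 (SE 0.07, adjusted p = 0.16) and 0.21 (SE 0.07, adjusted p = 0.0794). The second of these reached an adjusted p of 0.0402 after the low-count filter. Gins1, a subunit of the GINS complex that works with Cdc45, was lower too, at -0.36 (SE 0.10, adjusted p = 0.0216), a call lost in DESeq2 and without FAK-WT replicate 2 or FAK-kd replicate 1 or 2. Mcm10, a further initiation factor, was higher in FAK-WT than in FAK-null by 0.23 (SE 0.08, adjusted p = 0.0429), and the call was lost in the fit of these 2 lines alone and without any 1 of FAK-WT replicates 2 and 3, FAK-null replicates 1 and 2 or the FAK-kd libraries. The origin factors Cdc6 and Cdt1, which load the Mcm ring, were not called, nor was Gins2, 66.2% of whose words are shared with other genes.

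In the clamp and nucleotide group, Rrm2 and Pcna differed. Rrm2 (chr12:24708241-24714146), the regulated subunit of ribonucleotide reductase, was at 191, 203 and 214 CPM in FAK-WT, 153, 155 and 156 CPM in FAK-null and 234, 203 and 205 CPM in FAK-kd. Both re-expressing lines lay above FAK-null, by 0.41 (SE 0.07, adjusted p = 0.00109) and 0.47 (SE 0.07, adjusted p = 6.4e-04), and overlapped each other (-0.06, SE 0.07, 95% interval -0.22 to 0.10). Pcna (chr2:132249162-132253314), the sliding clamp of DNA polymerases, was at 384, 316 and 337 CPM in FAK-WT, 348, 351 and 320.3 CPM in FAK-null and 459.8, 418 and 409.7 CPM in FAK-kd. FAK-kd was above both other lines, with 0.34 (SE 0.08) over FAK-null (adjusted p = 0.0133) and -0.33 (SE 0.08) for FAK-WT over FAK-kd (adjusted p = 0.00808), while FAK-WT and FAK-null overlapped. The call over FAK-null was lost without FAK-kd replicate 1 (adjusted p = 0.0597), and the other without FAK-WT replicate 2 or 3 (0.0881 and 0.0506). Of the words of Pcna and Rrm2, 23.3% and 12.8% occur in other genes. Rrm1, Tyms and Tk1, which make or salvage deoxynucleotides, were not called in any comparison of the main fit. Rrm1 was near the threshold in FAK-WT over FAK-null (adjusted p = 0.0642) and was called in DESeq2 and after the low-count filter. Tk1 was near it in FAK-WT over FAK-kd (adjusted p = 0.0546) and was called in the fit of those 2 lines alone and without FAK-WT replicate 1. All 5 genes of the group had positive estimates for FAK-kd over FAK-null, with a median of 0.22. Positive estimates were also found for 46.9% of all genes, 50.9% of the genes kept by the filter, 36 of the 55 members and 76.3% of the wider list.

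**Figure D4:**
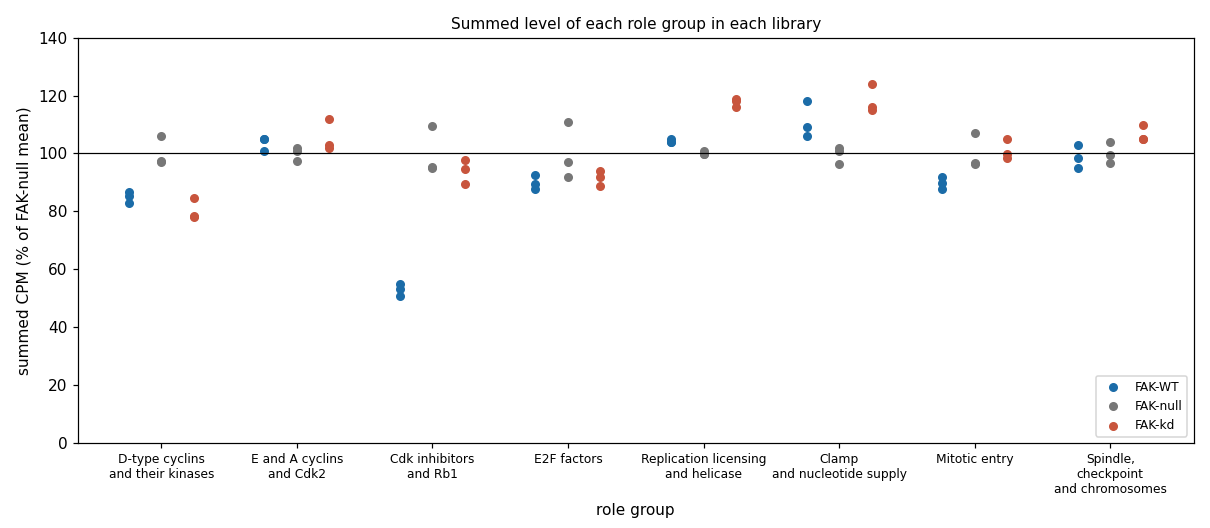
Summed CPM of each role group (x axis) in each library, as a percentage of the mean of the 3 FAK-null libraries (y axis, from 0; line at 100). The inhibitor and Rb1 group lies at 50.7% to 55% in FAK-WT, and the licensing group at 116% to 119% in FAK-kd.

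Of the 9 mitotic entry genes, Ccnb1 and Cdk1 were lower in FAK-WT than in both other lines, Mybl2 was higher in FAK-WT than in FAK-null, and 6 were not called. The share called lower was 22.2% against either line, beside 9.96% and 10.2% of all genes and 15.1% and 15.5% of the genes kept by the filter. The share higher than in FAK-null was 11.1%, beside 8.01% and 11.6%. Ccnb1 (chr13:100778650-100786570), which encodes cyclin B1, was at 146, 164 and 166 CPM in FAK-WT, 214, 215 and 205 CPM in FAK-null and 229, 207 and 201 CPM in FAK-kd. FAK-WT was below every other library, at -0.39 (SE 0.07) against FAK-null (adjusted p = 0.00147) and -0.40 (SE 0.07) against FAK-kd (adjusted p = 0.00125), whereas FAK-kd over FAK-null was 0.01 (SE 0.07). A share of 27.8% of its words occurs in other genes, chiefly Ccnb1-ps. Cdk1, its kinase partner (chr10:69335146-69352938), was at 297, 276 and 276 CPM in FAK-WT, 352, 349 and 366 CPM in FAK-null and 430.1, 384 and 367 CPM in FAK-kd. Again FAK-WT was the lowest line, at -0.34 (SE 0.07) against FAK-null (adjusted p = 0.00374) and -0.49 (SE 0.07) against FAK-kd (adjusted p = 1.9e-04). Mybl2, which encodes the B-Myb activator of mitotic genes, was higher in FAK-WT than in FAK-null by 0.31 (SE 0.09, adjusted p = 0.0256). That call was lost without FAK-WT replicate 2 or 3, without FAK-null replicate 1 or 2, and in the fit of these 2 lines alone. The other 6 of the 9 genes were not called: Ccnb2, the phosphatases Cdc25a, Cdc25b and Cdc25c, the kinase Plk1, and Foxm1, the forkhead factor of G2 genes. Their log2 fold changes ran from -0.19 (SE 0.08) (Foxm1) to 0.11 (SE 0.10) (Cdc25c) for FAK-WT over FAK-null.

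Among the 12 spindle, checkpoint and chromosome genes, Aurkb and Kif11 had the largest fold changes of those called. In FAK-WT over FAK-null 8.33% were called higher and 8.33% lower, beside 8.01% and 9.96% of all genes and 11.6% and 15.1% of the genes kept by the filter. In FAK-kd over FAK-null 8.33% were higher, beside 3.97% and 6.11% in these backgrounds. In FAK-WT over FAK-kd 25% were lower, beside 10.2% and 15.5%. Aurkb (chr11:69045647-69051664), the kinase of the chromosomal passenger complex, was at 98.2, 99.6 and 97.7 CPM in FAK-WT, 131, 129 and 148 CPM in FAK-null and 135, 131 and 134 CPM in FAK-kd. FAK-WT was lower than FAK-null, at -0.46 (SE 0.07, adjusted p = 2.9e-04), and than FAK-kd, at -0.43 (SE 0.07, adjusted p = 4.8e-04), and the FAK-null and FAK-kd libraries overlapped. Its relative Aurka was at 0.04 (SE 0.08) and -0.06 (SE 0.08) in the same comparisons and was not called. Birc5, which encodes survivin and works in the same complex as Aurkb, was at 155 to 176 CPM in all 9 libraries. Kif11 (chr19:37376403-37421859) was at 78.1, 70.3 and 69.8 CPM in FAK-WT, 81, 82.2 and 65.7 CPM in FAK-null and 96.9, 91.7 and 98.1 CPM in FAK-kd. FAK-kd was highest, by 0.32 (SE 0.08) over FAK-null (adjusted p = 0.0274), and FAK-WT was lower than FAK-kd, at -0.43 (SE 0.09, adjusted p = 0.00352). The call over FAK-null was lost without FAK-WT replicate 2 or 3 or any FAK-kd library, and in the fit of those 2 lines alone (adjusted p 0.0549 to 0.164). FAK-null replicate 3 was the lowest of all libraries for Kif11, and without it Kif11 was also called lower in FAK-WT than in FAK-null (-0.21, adjusted p = 0.0129). Top2a, the topoisomerase that untangles chromosomes, was lower in FAK-WT than in FAK-kd, at -0.36 (SE 0.08, adjusted p = 0.00513), and Cenpe, a kinetochore motor, was higher in FAK-WT than in FAK-null by 0.33 (SE 0.10, adjusted p = 0.0242), a call lost without FAK-WT replicate 1 or 2.

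Of the genes often read as markers of proliferating cells, Pcna and Top2a were called as described above and Mki67 was not. Mki67, the gene of the Ki-67 antigen, was at 486, 458 and 402 CPM in FAK-WT, 409, 477 and 416 CPM in FAK-null and 374, 461 and 495 CPM in FAK-kd, ranges that overlapped throughout. Its log2 fold changes were 0.04 (SE 0.10, 95% interval -0.18 to 0.26), 0.03 (SE 0.10, -0.18 to 0.24) and 0.01 (SE 0.10, -0.21 to 0.23) in the order of the comparisons above, so differences of up to about these bounds remain possible. Bub1, Bub1b and Cdc20, which act in or below the spindle checkpoint, and Kif20a and Cenpf were likewise not called. In all, 28 of the 55 members (50.9%) passed the test in at least 1 of the 3 comparisons, beside 26% of all genes and 38.3% of the genes kept by the filter, and 27 passed it in none. Without FAK-null replicate 3, or without both libraries that stood apart, 37 passed it in at least 1. Calls over all genes rose in those fits too, as given above, and their share in at least 1 comparison was not counted there. An exact permutation test of single members, two-sided, cannot fall under 0.1 with 3 libraries against 3 and so cannot pass 0.05.

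A wider list of cell cycle genes outside the members, of which 114 of 115 had a row, was counted for context. In FAK-WT over FAK-null 6 were higher and 15 lower (5.26% and 13.2%), with a median of -0.07. In FAK-kd over FAK-null 20 were higher and 2 lower (17.5% and 1.75%), with a median of 0.11. In FAK-WT over FAK-kd 2 were higher and 32 lower (1.75% and 28.1%), with a median of -0.18. Of the genes kept by the filter, 11.6% and 15.1%, 6.11% and 5.81%, and 10.7% and 15.5% were called higher and lower in the 3 comparisons. Without FAK-null replicate 3 the counts of higher and lower genes were 10 and 28, 28 and 3, and 7 and 59 in the 3 comparisons, and without FAK-WT replicate 1 they were 5 and 16, 21 and 2, and 0 and 33. Without both they were 9 and 33, 36 and 3, and 7 and 61. None of the wider list passed both thresholds in any comparison, in the fit of all libraries or in these. The background shares given here and above are those of the fit of all libraries. Calls over all genes in the fits without these libraries were given with the members. Fbxo5, which encodes the Emi1 inhibitor of the anaphase-promoting complex and is named here after its values were seen, was at -0.58, 0.25 and -0.83 on the log2 scale (adjusted p = 5.9e-05, 0.0424 and 1.8e-06). It was not alone in this size of change. Tfdp2 (-0.84) and Nusap1 (-0.67) were called lower in FAK-WT over FAK-kd, and Lin37 (-0.70) in FAK-WT over FAK-null. These were also named after their values were seen.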

How the data were processed

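RNA from FAK-WT, FAK-null and FAK-kd mouse SCC cells (3 libraries each) was prepared with the TruSeq RNA Library Prep Kit v2, which does not mark strand, and paired-end sequenced. Per the submitters' processing notes and the study's methods, the authors estimated transcript abundances with kallisto 0.43.1 on the mouse transcriptome (GRCm38, mm10; the release is not given in the sources used here) and summarised them to genes with tximport. What the authors deposited is the table of estimated counts per gene, held as whole numbers, and no gene in the table is at 0 in every library. Estimated counts can be divided between a gene and its copies or overlapping neighbours.

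Here, edgeR 4.0.16 (R 4.3.3) was fitted to all 9 libraries and 19044 genes with TMM scaling, no filter and cell line as the only factor (glmQLFit, glmQLFTest), and p-values were Benjamini-Hochberg adjusted over all genes. Members were called at adjusted p 0.05, with and without a minimum change of 1 on the log2 scale. CPM use TMM-scaled library sizes. The test was checked on simulated data. Named members are those past both thresholds, plus, in each role group, the 2 called members of largest fold change with a mean count of at least 100, with other members given by their fold changes or counts. Symbols and coordinates are from GENCODE vM21 (GRCm38), and 31-base words shared between genes were counted in its transcripts. The members, role groups and lists were chosen with earlier results of these data known. Alternatives were DESeq2 1.42.0, other scalings and filters, glmTreat, fits of 2 lines alone, a replicate block and leaving out each library.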

Additional observations from a re-analysis of the deposited data

How the results depend on the processing

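Of the counts and medians over the members, 158 values under an alternative stayed close to the main one (a count within 1.5-fold, a median within the SD between replicate libraries) and 16 moved. Under glmTreat against a log2 fold change of 1, 1 member was called in FAK-WT over FAK-null and 1 in FAK-WT over FAK-kd. In both it was Ccnd2, the member of low counts (glmTreat adjusted p = 2.1e-04 and 0.0276). Cdkn2c was not called by glmTreat in either comparison (adjusted p = 0.352 in FAK-WT over FAK-null), so a change beyond 2-fold was not established for it. Leaving out each library in turn gave 4 to 9 members higher in FAK-WT over FAK-null, 3 to 14 in FAK-kd over FAK-null and 4 to 10 in FAK-WT over FAK-kd, and medians of -0.06 to 0.00 and 0.05 to 0.11 in the first and the second comparison. The lowest medians came without FAK-WT replicate 1 and without FAK-kd replicate 1. With both FAK-WT 1 and FAK-null 3 left out, chosen after seeing the data, 16 members were lower in FAK-WT over FAK-null, 16 were higher in FAK-kd over FAK-null and 7 were higher in FAK-WT over FAK-kd. A correction of each library for transcript GC content, also added after seeing the data, gave 11, 12 and 9 members higher in the 3 comparisons and kept every main call, as did leaving out FAK-null replicate 3. Calls over all genes in either direction also rose, to 4843, 2776 and 5759 without both libraries and 4276, 2198 and 4507 after GC correction. The causes of these gains were not tested.

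Signs turned only for named members that were called in neither fit. Leaving out single libraries gave -0.06 to 0.07 for Pcna in FAK-WT over FAK-null, -0.10 to 0.02 for Rrm2 in FAK-WT over FAK-kd and, in FAK-kd over FAK-null, -0.06 to 0.04 for Ccnb1, -0.03 to 0.08 for Cdk6, -0.12 to 0.03 for Cdk2, -0.19 to 0.01 for Cdkn2c, -0.14 to 0.05 for E2f2 and -0.07 to 0.04 for Aurkb. Without both libraries Pcna was at -0.10, Ccnb1 at -0.02, Cdk2 at 0.03, Cdkn2c at 0.01, E2f2 at 0.05 and Aurkb at 0.04 in the same comparisons. After GC correction Pcna was at -0.02, Ccnb1 at -0.07, Cdk6 at -0.03 and E2f2 at 0.00. With at least 10 counts in every library Pcna and Ccnb1 were at -0.01, and Ccnb1 was at -0.01 with library size alone and at 0.00 with DESeq2 or its size factors. Ccnd2 could not be fitted when 10 counts were required in every library.

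With the replicate block, 16, 9 and 19 members were called in the 3 comparisons, against 17, 10 and 20 without it, losing Mcm10, Mcm7 and Gins1. No pairing by replicate number was seen: deviations from the line means correlated at -0.014 on average in same-numbered pairs (9 pairs) and at 0.00655 in the others (18 pairs). The deviations cancel within each line, so these averages are tied to each other and cannot exclude a pairing. DESeq2 called 17, 12 and 20 members. The depth of FAK-WT replicate 1 limits low members there, since 3 counts equal 3.78 CPM.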
